A study of Mus musculus with 6 samples.

Results

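The Fos and Jun genes encode the core subunits of the transcription factor AP-1, and 7 of them were followed here, Fos, Fosb, Fosl1 and Fosl2 of the Fos family and Jun, Junb and Jund of the Jun family. Membership goes by gene symbol, and each matched 1 of the 23473 gene-symbol rows (56826 rows in all, the others being cDNA clones) of a table of RNA read counts from mouse brain. The 2 groups were 3 libraries from brains with the middle cerebral artery blocked for a time, which models ischemic stroke, and 3 libraries after a sham operation. In the ischemia/reperfusion group a filament entered from the right external carotid artery blocked the vessel for 1 h, and the brain was taken after 6 h of reperfusion. The sham group had the same surgery with no filament, and no time after surgery is given for it in the labels. All mice were male C57BL/6 adults of 8 to 9 weeks with no genetic change named. They were operated under chloral hydrate anaesthesia (350 mg/kg), with a body temperature of 37 °C given for both groups. The labels give neither the side or region of brain taken nor whether each library came from its own animal, so each p-value speaks only of the spread between libraries, which may be technical.

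AP-1 is a dimer held together by leucine zippers. Fos proteins do not form stable dimers with each other and depend on a Jun partner, whereas Jun proteins can also pair among themselves. Fos, Fosb, Jun and Junb are immediate early genes, transcribed within minutes of neuronal firing, growth factor signalling or stress, and their transcripts are short-lived. Their promoters are read by serum response factor and CREB (Fos) and by Jun and ATF2 dimers (Jun), which MAP kinases activate. Jund is expressed steadily in most tissues, and Fosl1 and Fosl2 are known as later members of the response.

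The sequence just before the start of transcription is shown for the 4 immediate early members. Of these, Fos, Fosb and Junb shared a pattern over the libraries, described below, that Jun did not show. Fosl2 shared that pattern too, and its sequence is not shown. Each line holds the 150 bases before the RefSeq start, read along the gene's strand (GRCm38.p6, which is mm10), with matches to any of the motifs searched in capitals.
Fos: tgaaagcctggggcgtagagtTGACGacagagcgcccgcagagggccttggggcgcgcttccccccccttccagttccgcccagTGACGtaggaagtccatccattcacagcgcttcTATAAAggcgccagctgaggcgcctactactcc
Fosb: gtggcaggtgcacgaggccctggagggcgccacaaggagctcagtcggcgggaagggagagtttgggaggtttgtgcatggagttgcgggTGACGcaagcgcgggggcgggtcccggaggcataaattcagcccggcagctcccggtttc
Junb: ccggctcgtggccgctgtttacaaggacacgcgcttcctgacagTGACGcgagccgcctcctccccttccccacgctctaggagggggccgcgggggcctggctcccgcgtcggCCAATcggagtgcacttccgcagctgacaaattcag
Jun: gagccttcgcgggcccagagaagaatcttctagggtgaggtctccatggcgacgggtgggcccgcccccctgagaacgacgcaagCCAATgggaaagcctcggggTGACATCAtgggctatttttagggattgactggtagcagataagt

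These stretches lie at chr12:85473740-85473889 on the plus strand for Fos, and on the minus strand at chr7:19310046-19310195 for Fosb, chr8:84978749-84978898 for Junb and chr4:95052223-95052372 for Jun. The motifs were searched on both strands. They were TGACGTCA, the CREB element, with its core TGACG inside it, and TGANTCA, the AP-1 element. The AP-1 and ATF variant known from the Jun promoter, TGACATCA, was searched as well. The TATA box was searched as TATAAA. The box bound by NF-Y was searched as CCAAT. The last was the CArG box of serum response factor. In the 250 bases before the start, which were available for 6 of the 7 members, TGACG was present in Fos, Fosb and Junb, against 17.7% of 32817 promoter windows of that length. In Fos it lay 66 to 62 and 129 to 125 bases before the start, in Fosb 60 to 56 and in Junb 106 to 102. Jun held TGACATCA 45 to 38 bases before the start, a motif in 2.93% of all windows, and Fos held TATAAA at 33 to 28 (12.4% of windows). CCAAT was present in Jun and Junb, against 33.8% of all windows. TGACGTCA (1.55% of windows), TGANTCA (6.75%) and the CArG box (1.47%) had no match in the 6 windows. Bases farther than 250 before the start were not searched, so a promoter without a match here may hold the motif farther out. Fosl2, which shared the pattern of Fos, Fosb and Junb over the libraries, had a window with no match to any of the motifs. A match describes letters and shows no binding, and whether any motif bears on the pattern was not tested.

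The library totals ranged from 45425867 to 49686109 counts, and all 7 members passed the filter on low counts. One library stood apart for these genes. Sham replicate 2 had 6.87 times the Fos level of the other sham libraries' mean, 5.93 times that of Fosb, 2.43 times that of Junb and 1.87 times that of Fosl2 (CPM, counts per 1e+06 counts). For Jun the same ratio was 1.07 and for Jund 1.18. Results are therefore given with and without this library. Among marker lists for cell types and brain regions, its summed endothelial markers were 353 CPM, against 282 and 295 CPM in the other sham libraries, and its striatal markers 90.6 CPM, against 132 and 227 CPM. Its neutrophil and monocyte markers summed to 6.25 CPM, against 5.51 and 3.05 CPM in the others. Its neuron, astrocyte and microglia markers summed to 2890, 2698 and 110 CPM, against 2873 to 2964, 2649 to 2962 and 123 to 126 CPM in the others. It was the lowest sham library for oligodendrocyte markers (4348 CPM, against 4621 and 5423) and choroid plexus markers (550 CPM, against 614 and 767). Its cortex, mural and erythroid markers, at 588, 88.4 and 104 CPM, lay between those of the other sham libraries. The part of tissue make-up in the Fos level of sham replicate 2 was not tested.

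Levels between genes were compared per transcript length, as deposited RPKM (counts scaled to a row length of 1 kilobase and a total of 1e+06). After ischemia/reperfusion the order was Junb at 76.5 ± 14.0, Jund at 67.9 ± 9.99, Fos at 52.0 ± 32.2, Jun at 39.4 ± 11.9, Fosl2 at 8.02 ± 0.879, Fosb at 7.17 ± 2.65 and Fosl1 at 2.95 ± 0.425 RPKM (SD, n = 3). In sham it was Jund at 47.6 ± 5.43, Junb at 44.0 ± 24.6, Fos at 17.0 ± 19.5, Jun at 16.1 ± 2.40, Fosl2 at 5.69 ± 2.24, Fosb at 3.59 ± 3.89 and Fosl1 at 2.82 ± 0.517 RPKM (SD, n = 3). The libraries of neighbours in these orders overlapped, except between Jun and Fosl2 in both groups and between Fosb and Fosl1 after ischemia/reperfusion. Jund, Junb, Fos and Jun thus formed an upper tier and Fosl2, Fosb and Fosl1 a lower one, apart by level in group means. In sham the place of Fos rested on replicate 2, at 39.5 RPKM. In sham replicates 1 and 3 Fos was at 4.56 and 6.96 RPKM, against 13.4 and 18.0 RPKM for Jun and 4.75 and 4.07 RPKM for Fosl2. In these libraries Fosb, at 0.874 and 1.84 RPKM, was below Fosl1, at 2.92 and 2.27 RPKM.

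**Figure D1:**
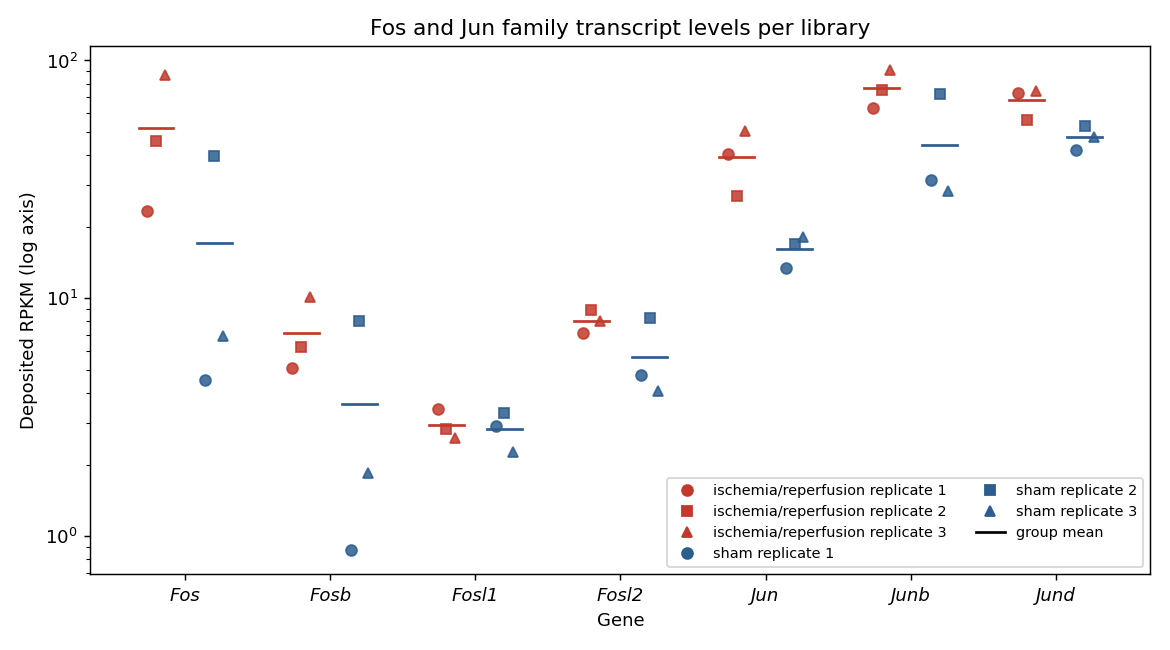
Deposited RPKM of each member on a log axis, with 1 point per library (shape gives the replicate number) and a line at the group mean. Jun and Jund are the members whose ischemia/reperfusion points all lie above every sham point, and sham replicate 2 (blue square) lies among the ischemia/reperfusion points for Fos, Fosb, Fosl2 and Junb.

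All 7 members had a positive log2 fold change between ischemia/reperfusion and sham, where 53.1% of all 40170 rows tested did and 44.2% of gene-symbol rows. For Fosl1 this was 0.00, and it was −0.0076 with RLE factors and 0.044 with upper-quartile factors. The median over the members was 0.74, against 0.02 over all rows tested. With edgeR's quasi-likelihood test and Benjamini-Hochberg adjustment over all rows, 0 members passed an adjusted p of 0.05, as did 0.00249% of all rows (1 row). At an unadjusted p under 0.05 there were 2 members, Jun and Jund, against 8.73% of all rows and 6.39% of gene-symbol rows in the higher direction. Of all rows at that unadjusted p, 55.9% were higher, and 71.1% with upper-quartile factors. With DESeq2 1 member passed, Jun, against 1.1% of the rows it adjusted in that direction, and with limma-voom 0 passed (0.00996%). The ischemia/reperfusion libraries of 2 members, again Jun and Jund, all lay above those of sham, as did 14.0% of all rows (10.8% on TMM-scaled CPM) and 10.3% of gene-symbol rows. Without sham replicate 2 this held for 6 members, all but Fosl1, where 19.7% of all rows did. That library was singled out for its high values of 4 of these members, Fos, Fosb, Fosl2 and Junb. Leaving it out had to raise their fold changes and the count. Nothing is therefore read from their p-values without it, or from the count against the share of all rows. The count was 4 without ischemia/reperfusion replicate 1, where 24.4% of all rows did, and 2 without any of the other 4 libraries. Brain tissue holds many cell types, and in it fewer cells of a type and less RNA per cell cannot be told apart.

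Fos, the founding member and a standard marker of recently active neurons, lies on chromosome 12 from 85473901 to 85477270 (mm10, plus strand, row length 2094 bases). It had 49.0, 95.9 and 181.9 CPM in ischemia/reperfusion replicates 1, 2 and 3, against 9.54, 82.8 and 14.6 CPM in sham replicates 1, 2 and 3. The groups overlapped, because sham replicate 2 exceeded ischemia/reperfusion replicate 1. The log2 fold change was 1.54 ± 1.10 (SE), with an adjusted p of 0.563 (edgeR). Without sham replicate 2 it was 3.12 ± 0.73 with an adjusted p of 0.332 (range over the alternatives 0.240 to 0.819). It was 0.96 without ischemia/reperfusion replicate 3, 1.09 without sham replicate 1 and 1.16 without sham replicate 3. The spread of Fos within groups was wide: its SD of log2 CPM stood at the 99.9th percentile of 14452 gene rows in sham and at the 99.0th after ischemia/reperfusion.

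Fosb, which also encodes the truncated ΔFosB of long-lasting neuronal adaptation, lies on chromosome 7 from 19302696 to 19310045 (minus strand, row length 3776 bases). It had 19.2, 23.7 and 38.3 CPM in the ischemia/reperfusion libraries, against 3.30, 30.4 and 6.96 CPM in sham. Its order of libraries was close to that of Fos, with sham replicate 2 here above 2 of the 3 ischemia/reperfusion libraries. The log2 fold change was 0.93 ± 0.94 with an adjusted p of 0.685, and 2.35 ± 0.45 without sham replicate 2, where the adjusted p was 0.254 (edgeR; range over the alternatives 0.254 to 0.880). It was 0.60 when ischemia/reperfusion replicate 3 was left out, 0.46 when sham replicate 1 was and 0.60 when sham replicate 3 was. The counts do not separate full-length from truncated Fosb transcripts. A cDNA clone row inside the gene on the same strand, fantom3_F630301H07, had 8.65, 11.9 and 30.8 CPM after ischemia/reperfusion, against 1.87, 14.5 and 3.64 CPM in sham, and may count some of the same reads.

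Fosl2 encodes Fra-2, a member without the strong activation domain of Fos, on chromosome 5 from 32136472 to 32157839 (plus strand, row length 5863 bases). It had 41.9, 52.2 and 47.1 CPM in the ischemia/reperfusion libraries, against 27.9, 48.3 and 23.8 CPM in sham. Sham replicate 2 lay inside the ischemia/reperfusion range, and the other sham libraries lay below it. The log2 fold change was 0.44 ± 0.27 with an adjusted p of 0.475, and 0.81 ± 0.14 without sham replicate 2, where the adjusted p was 0.105 (edgeR; range over the alternatives 0.105 to 0.745). It was 0.23 without sham replicate 3 and 0.32 without sham replicate 1. A clone on the opposite strand at its start, fantom3_5430405N01, had 7.23, 11.2 and 9.91 CPM after ischemia/reperfusion, against 5.35, 6.98 and 4.58 CPM in sham, so that its groups did not overlap (log2 fold change 0.69 ± 0.20, edgeR adjusted p = 0.191). No source used here says that counting used strand, so reads of Fosl2 and of this clone cannot be separated where they overlap. A second clone, fantom3_E330001M15, on the same strand within the gene, had 0.803 to 1.58 CPM after ischemia/reperfusion, against 0.561 to 0.624 CPM in sham.

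Fosl1 encodes Fra-1, on chromosome 19 from 5447698 to 5455938 (plus strand, row length 1705 bases). It was the member with the lowest group means and had 5.83, 4.81 and 4.42 CPM in the ischemia/reperfusion libraries, against 4.97, 5.61 and 3.87 CPM in sham. Neither group stood above the other, with a log2 fold change of 0.00 ± 0.19 and an adjusted p of 0.995 (edgeR; range over the alternatives 0.767 to 1.00). Its 3' part overlaps Ccdc85b on the opposite strand, which had 95.5 ± 1.66 CPM after ischemia/reperfusion and 96.1 ± 1.75 CPM in sham (SD, n = 3 each). Reads of the more abundant Ccdc85b may therefore be part of the Fosl1 count.

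**Figure D2:**
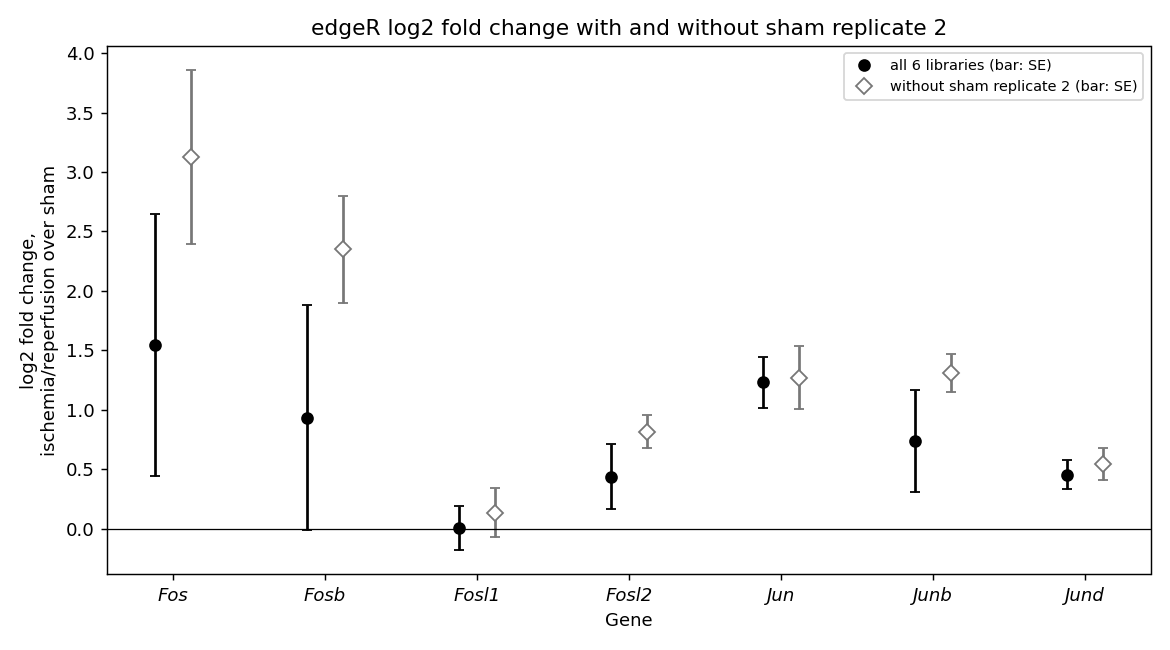
The edgeR log2 fold change of ischemia/reperfusion over sham for each member with all 6 libraries (filled circles) and without sham replicate 2 (open diamonds), bars giving the SE. With all libraries Fos was at 1.54 and Fosb at 0.93, and without that library at 3.12 and 2.35, while Jun was at 1.23 and 1.27.

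Jun, the partner for Fos and the substrate of the stress kinases JNK, lies on chromosome 4 from 95049036 to 95052222 (minus strand, row length 3187 bases). It had 129, 86.0 and 161 CPM in the ischemia/reperfusion libraries, against 42.8, 53.8 and 57.5 CPM in sham. Each ischemia/reperfusion library lay above every sham library, and ischemia/reperfusion replicate 2 was the lowest of them. Its SD of log2 CPM stood at the 91.5th percentile of gene rows after ischemia/reperfusion and at the 81.8th in sham. The log2 fold change was 1.23 ± 0.22 with an adjusted p of 0.148 (edgeR), rank 145 of 40170 rows by p-value. DESeq2 gave 1.22 ± 0.19 with an adjusted p of 1.3e-06. In edgeR it passed without ischemia/reperfusion replicate 2 (1.43, adjusted p = 0.0165, where 0.078% of rows passed in that direction), and its adjusted p over the alternatives ranged up to 0.491, without sham replicate 1. Without sham replicate 2 it was 1.27 ± 0.27 (adjusted p = 0.254).

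Junb, a weaker activator than Jun that can restrain it, lies on chromosome 8 from 84976909 to 84978748 (minus strand, row length 1840 bases). It had 116, 138 and 168 CPM in the ischemia/reperfusion libraries, against 57.6, 133 and 52.1 CPM in sham. Sham replicate 2 again lay within the ischemia/reperfusion range, while the other sham libraries lay below it. The log2 fold change was 0.74 ± 0.43 with an adjusted p of 0.475 (edgeR). Without sham replicate 2 it was 1.31 ± 0.16 and passed in edgeR, with an adjusted p of 0.0289 (range over the alternatives 0.0289 to 0.735). Of all rows 0.0799% then passed in that direction. That library was singled out in part for its high Junb, so nothing is read from this pass. The log2 fold change was 0.49 without sham replicate 3 and 0.54 without sham replicate 1. A clone whose span covers Junb, fantom3_9430008B02, had 0.618 to 0.954 CPM after ischemia/reperfusion, against 0.450 to 0.540 CPM in sham.

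Jund, which counters growth in several cell types, lies on chromosome 8 from 70697739 to 70700616 (plus strand, row length 2878 bases). It had 210, 162 and 214 CPM in the ischemia/reperfusion libraries, against 122, 153 and 137 CPM in sham. The groups did not overlap, with ischemia/reperfusion replicate 2 closest to sham. The log2 fold change was 0.45 ± 0.12 with an adjusted p of 0.170 (edgeR, rank 741 by p-value), and DESeq2 gave an adjusted p of 0.0785. Its values within groups were the closest together of the Jun genes in sham, where the highest library was 1.26 times the lowest, against 1.34 for Jun and 2.56 for Junb.

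According to the authors' deposited table, 6 members, all but Fosl1, had a q-value under 0.05 and a higher mean after ischemia/reperfusion, as had 14.7% of the rows of that table. The log2 fold changes in the authors' deposited table were 1.61 for Fos, 1.29 for Jun, 1.00 for Fosb, 0.80 for Junb, 0.51 for Jund and 0.50 for Fosl2, with q-values of 1.2e-14 to 2.6e-14, and 0.06 for Fosl1, with a q-value of 0.789. No source used here names the test behind these values.

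The summed level of the 7 genes was 216, 222 and 324 RPKM in ischemia/reperfusion replicates 1, 2 and 3, against 100.1, 201 and 109 RPKM in sham replicates 1, 2 and 3. The 3 Jun genes made up the larger part of it in each library, at 177, 159 and 216 RPKM after ischemia/reperfusion and 87.0, 142 and 93.9 RPKM in sham. The 4 Fos genes summed to 39.0, 63.8 and 108 RPKM after ischemia/reperfusion and 13.1, 59.1 and 15.1 RPKM in sham. The ratio of the Fos sum to the Jun sum was 0.221, 0.402 and 0.498 after ischemia/reperfusion and 0.151, 0.415 and 0.161 in sham, so that the Fos sum was below the Jun sum in all 6 libraries and the groups overlapped. Transcript levels do not give protein levels or dimers.

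**Figure D3:**
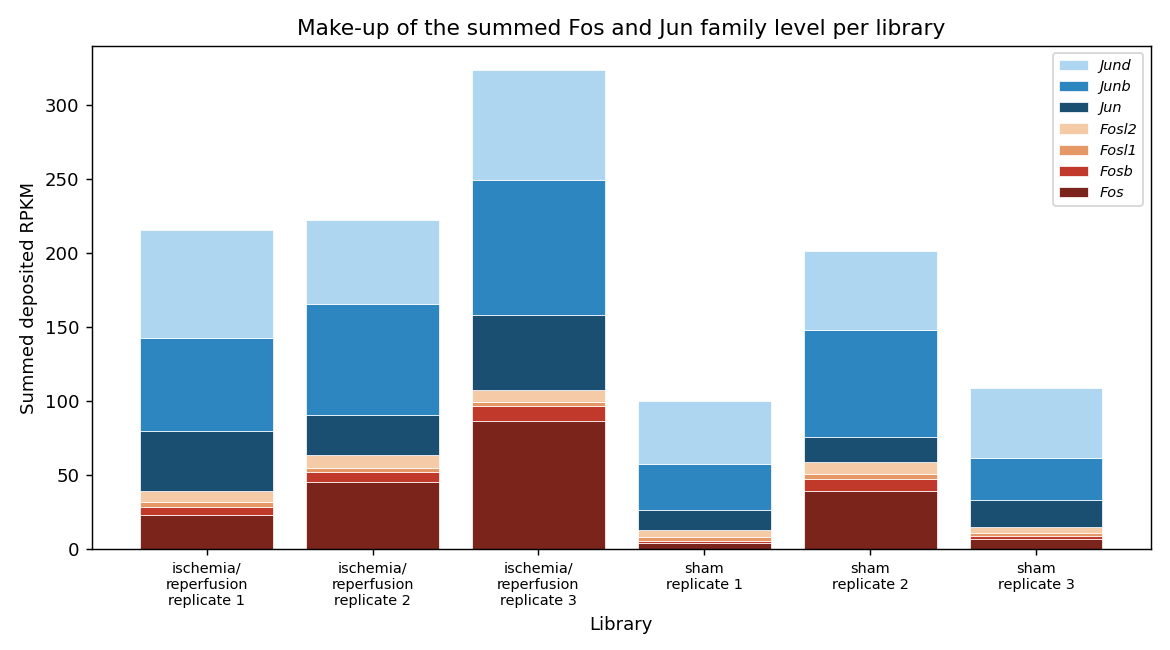
Summed deposited RPKM of the 7 genes in each library, split by gene, with the Fos genes in red and orange at the bottom and the Jun genes in blue above. The sums run from 216 to 324 RPKM after ischemia/reperfusion and from 100.1 to 201 RPKM in sham, where replicate 2 is the highest.

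Within the sum, Fos took 10.8%, 20.6% and 26.8% after ischemia/reperfusion, against 4.55%, 19.6% and 6.38% in sham. Jund took 33.8%, 25.4% and 23.0% after ischemia/reperfusion, against 42.2%, 26.3% and 43.6% in sham. The leading transcript was Jund in ischemia/reperfusion replicate 1 and in sham replicates 1 and 3, and Junb in ischemia/reperfusion replicates 2 and 3 and in sham replicate 2. Jun took 18.8%, 12.1% and 15.6% after ischemia/reperfusion, against 13.4%, 8.38% and 16.5% in sham, with its lowest share in sham replicate 2. The ratio of Fos to Jun was 0.577, 1.70 and 1.72 after ischemia/reperfusion and 0.339, 2.34 and 0.386 in sham. Its log2 value differed by 0.82 between the groups, which an exact two-sided permutation test did not separate (p = 0.4, where the smallest p that 3 against 3 libraries allow is 0.1), and this ratio was chosen after the values were seen. Leaving out ischemia/reperfusion replicate 1, 2 or 3 gave differences of 1.34, 0.56 and 0.55 in that order, and leaving out sham replicate 1, 2 or 3 gave 0.32, 1.72 and 0.42. Fosb was at 0.117 to 0.217 times its RPKM after ischemia/reperfusion and 0.192 to 0.265 times in sham.

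The genes whose profiles were nearest to Fos and to Jun were sought among 14451 gene rows of at least 1 CPM, by the mean absolute difference of log2(CPM + 0.1) after each gene was centred on its mean over the 6 libraries. Nearest to Fos was Fosb (0.35 on the log2 scale), followed by Cyr61, a secreted matrix protein (0.44), Npas4, a transcription factor induced by neuronal activity (0.49), Thbs1, thrombospondin 1 (0.56), and Lrrc32, a membrane anchor of latent TGF-beta (0.56). Of these, 4 were also among the nearest 5 without sham replicate 2. Cyr61 had 16.5, 35.2 and 41.8 CPM after ischemia/reperfusion, against 4.67, 18.0 and 8.39 CPM in sham. Its high sham replicate 2 is part of the likeness by which it was chosen.

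Nearest to Jun were Col27a1, a fibrillar collagen (0.14), Plau, the urokinase plasminogen activator (0.15), Rem2, a small GTPase that regulates calcium channels (0.15), Ppp1r15a, which ends the block of translation after stress (0.16), and Hsph1, a chaperone that assists Hsp70 (0.17). Plau had 6.22, 3.12 and 5.15 CPM after ischemia/reperfusion, against 1.41, 1.66 and 2.07 CPM in sham, and Rem2 had 16.5, 9.00 and 14.3 CPM after ischemia/reperfusion, against 5.11, 6.59 and 6.57 CPM in sham. In each of these 5 genes the ischemia/reperfusion libraries lay above the sham libraries, as in 14.0% of all rows and 10.3% of gene-symbol rows. These genes were chosen for their likeness to Jun, so nothing is read from this. Without sham replicate 2 only 2 of them, Plau and Ppp1r15a, were among the nearest 5. The other 3 of the nearest 5 were then Gadd45g, Hmgb2 and Bcor, whose sham replicate 2 was above the other sham libraries (46.8 CPM against 22.6 and 34.1 CPM for Gadd45g, for instance). Neighbours are chosen by their values in the libraries used, so their levels there are a description.

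**Figure D4:**
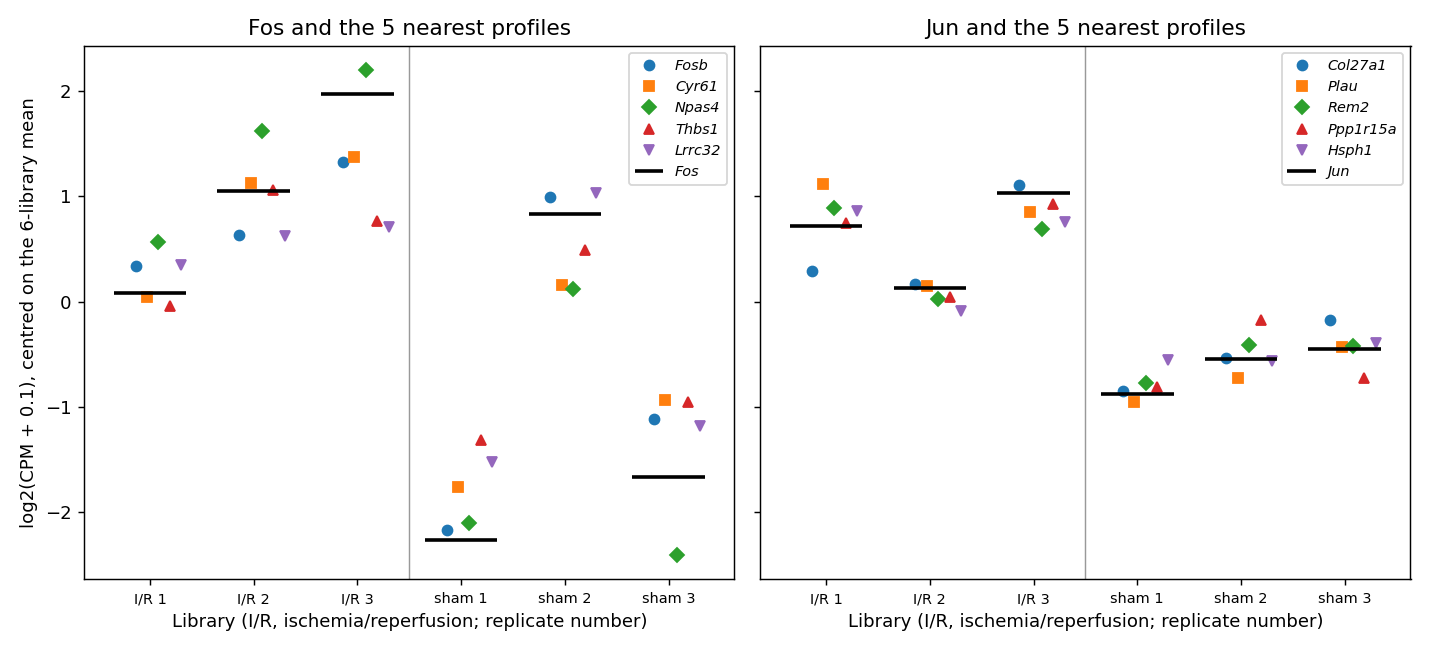
Profiles of Fos (left) and Jun (right) as black bars, with the 5 gene rows nearest to each as coloured symbols, on log2(CPM + 0.1) centred on each gene's mean over the 6 libraries. In the left panel sham replicate 2 lies above the other sham libraries for every gene, and in the right panel all sham libraries lie below all ischemia/reperfusion libraries of the same gene.

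Lists of genes around AP-1 were counted in the same edgeR fit, in which 0 of their members passed an adjusted p of 0.05 (0.00249% of all rows). Among 16 other basic leucine zipper proteins that pair with Fos or Jun, 15 were tested, 10 had a positive log2 fold change and 5 a negative one, with a median of 0.27 against 0.02 over all rows. At an unadjusted p under 0.05, 5 were higher and 0 lower, against 8.73% and 6.9% of all rows. Atf3, a stress-induced partner of Jun, had 49.9, 24.7 and 40.0 CPM after ischemia/reperfusion, against 1.41, 6.77 and 1.96 CPM in sham. It was the 1 member that DESeq2 called (adjusted p = 0.0015, where 1.1% of the rows it adjusted were called higher). Without sham replicate 2 it passed in edgeR (log2 fold change 4.45, adjusted p = 0.0282), as did 0.0799% of rows in that direction. As for Jun, the Atf3 groups did not overlap, where 14.0% of all rows were likewise apart and higher. As for Fos, Atf3 was highest among sham libraries in replicate 2. Mafg, a small Maf protein, had 24.6 ± 0.581 CPM after ischemia/reperfusion and 18.6 ± 2.27 CPM in sham (SD, n = 3 each). Mafa and Creb5 were at 0.866 ± 0.232 and 1.60 ± 0.743 CPM after ischemia/reperfusion and at 0.411 ± 0.154 and 0.824 ± 0.156 CPM in sham. Maff, named after its values were seen, had 15.5, 16.3 and 17.2 CPM after ischemia/reperfusion, against 11.7, 23.8 and 3.91 CPM in sham, where replicate 2 was the highest of all 6 libraries.

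The MAP kinase cascades that act on the Fos and Jun proteins and promoters had 11 of 23 kinases and scaffolds positive and 12 negative. Their median was −0.00, and 53.1% of all rows and 44.2% of gene-symbol rows were positive. At an unadjusted p under 0.05, 2 were higher and 1 lower, close to the 8.73% and 6.9% of all rows. Map3k1, a kinase upstream of JNK, had 16.2 ± 4.31 CPM after ischemia/reperfusion and 11.4 ± 1.30 CPM in sham, and Braf, of the ERK cascade, had 137 ± 12.8 CPM after ischemia/reperfusion and 156 ± 11.5 CPM in sham (SD, n = 3 each). Mapk11, a p38 kinase, had 29.0 ± 1.56 CPM after ischemia/reperfusion and 23.2 ± 2.38 CPM in sham, and Map3k5, the stress kinase ASK1, had 46.4 ± 4.73 CPM after ischemia/reperfusion and 38.2 ± 0.970 CPM in sham. These are transcript levels, and kinase activity was not measured.

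Of 15 transcription factors that act on the Fos and Jun promoters, 14 were tested, with 9 positive, 5 negative and a median of 0.11. Positive were 53.1% of all rows and 44.2% of gene-symbol rows. At an unadjusted p under 0.05, 2 were higher and 1 was lower, where 8.73% and 6.9% of all rows were. Elk1, the ternary complex factor at the Fos serum response element, had 36.7 ± 1.96 CPM after ischemia/reperfusion and 44.7 ± 4.94 CPM in sham, and Crtc2, a CREB coactivator, had 7.26 ± 1.53 CPM after ischemia/reperfusion and 4.90 ± 0.427 CPM in sham (SD, n = 3 each). Mef2d had 31.3 ± 3.18 CPM after ischemia/reperfusion and 25.0 ± 2.10 CPM in sham, and Mef2c had 339 ± 51.0 CPM after ischemia/reperfusion and 382 ± 13.4 CPM in sham. Serum response factor itself, Srf, which was not among the 4 smallest p-values, had 48.8 ± 6.17 CPM after ischemia/reperfusion and 41.0 ± 6.23 CPM in sham.

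Among 13 genes for the turnover and cofactors of Fos and Jun, 6 were positive and 7 negative, with a median of −0.02. The positive share was 53.1% for all rows and 44.2% for gene-symbol rows. At an unadjusted p under 0.05, 2 were higher and 1 lower, beside 8.73% and 6.9% of all rows. Nfatc1, an NFAT factor that binds beside AP-1, had 2.99 ± 0.421 CPM after ischemia/reperfusion and 1.44 ± 0.352 CPM in sham. It was called by DESeq2 (adjusted p = 0.0191), which called 1.1% of the rows it adjusted as higher. Nfatc2 had 8.55 ± 2.22 CPM after ischemia/reperfusion and 6.03 ± 0.517 CPM in sham (SD, n = 3 each). Cops5, first described as a Jun-binding coactivator, had 34.4 ± 1.84 CPM after ischemia/reperfusion and 39.0 ± 1.47 CPM in sham, and the acetyltransferase Crebbp had 73.3 ± 11.3 CPM after ischemia/reperfusion and 60.9 ± 9.29 CPM in sham.

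Of 24 textbook AP-1 target genes, 19 were tested, since Mmp1a, Mmp3, Mmp10, Mmp13 and Fasl were filtered as low. There were 17 positive and 2 negative members, where 53.1% of all rows and 44.2% of gene-symbol rows were positive. The median was 0.30, against 0.02 over all rows and −0.04 over gene-symbol rows. Regulation of these genes by AP-1 was not tested. Leaving out ischemia/reperfusion replicate 1, 2 or 3 gave medians of 0.15, 0.56 and 0.48 in that order, and leaving out sham replicate 1, 2 or 3 gave 0.23, 0.59 and 0.35. At an unadjusted p under 0.05, 3 of 19 were higher and 0 lower, against 8.73% and 6.9% of all rows. Besides Plau (DESeq2 adjusted p = 0.00016), Lif, a cytokine of the interleukin-6 family, had 2.45, 2.80 and 2.33 CPM after ischemia/reperfusion, against 0.463, 1.58 and 0.512 CPM in sham (DESeq2 adjusted p = 0.0183). DESeq2 called 1.1% of the rows it adjusted as higher. Without sham replicate 2, Lif passed in edgeR with an adjusted p of 0.0289, as did 0.0799% of rows in that direction. Hbegf, a ligand of the EGF receptor, had 17.3 ± 4.13 CPM after ischemia/reperfusion and 11.7 ± 2.61 CPM in sham, and Tgfb1 had 0.865 ± 0.369 CPM after ischemia/reperfusion and 0.477 ± 0.124 CPM in sham (SD, n = 3 each). Plaur, the receptor of urokinase, named after its values were seen, had 10.3, 4.92 and 6.03 CPM after ischemia/reperfusion, against 3.50, 11.3 and 2.19 CPM in sham, with replicate 2 of sham the highest of all.

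**Figure D5:**
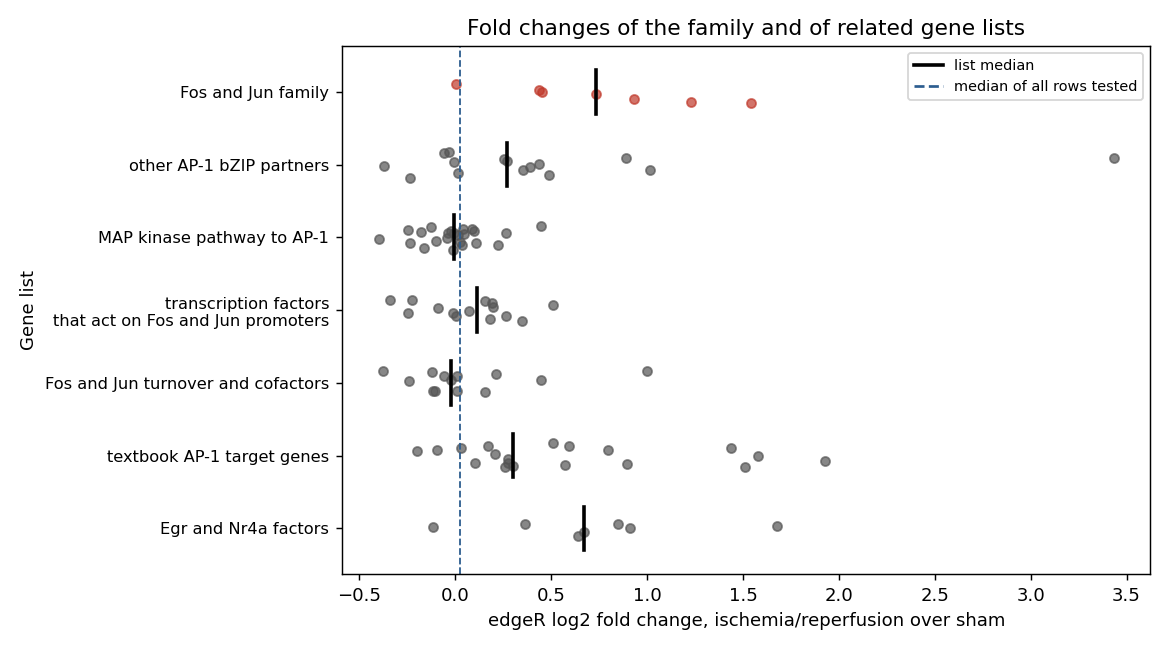
The edgeR log2 fold change of ischemia/reperfusion over sham for each tested gene of the family (red) and of 6 related lists (grey), with the list median as a black bar and the median of all rows tested, 0.02, as a dashed line. Atf3, at 3.43, is the point farthest to the right, and the kinase list is centred near 0.

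The Egr and Nr4a genes are other immediate early transcription factors. Of these, 6 of 7 were positive, with a median of 0.67, where 53.1% of all rows and 44.2% of gene-symbol rows were positive. At an unadjusted p under 0.05, 4 were higher and 0 lower, against 8.73% and 6.9% of all rows. Egr2 had 4.80, 5.46 and 5.35 CPM after ischemia/reperfusion, against 1.03, 2.33 and 1.33 CPM in sham, with no overlap (14.0% of all rows). DESeq2 called it (adjusted p = 4.1e-06, where 1.1% of the rows it adjusted were called higher). So did edgeR without sham replicate 2 (adjusted p = 0.0220, where 0.0799% of rows were). Egr3, Egr4 and Nr4a3 were at 14.1 ± 1.26, 17.1 ± 4.04 and 5.41 ± 1.81 CPM after ischemia/reperfusion and at 10.5 ± 0.861, 9.11 ± 4.23 and 3.34 ± 0.852 CPM in sham (SD, n = 3 each). Whether these genes differ from the Fos and Jun genes in their response was not tested.

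Several marker lists moved between libraries beside these values. Neutrophil and monocyte markers, with 5 of 6 matched and 4 of 4 tested members positive, summed to 7.10 to 12.4 CPM after ischemia/reperfusion and 3.05 to 6.25 CPM in sham, and no matched marker was at 0 in all libraries. Oligodendrocyte markers summed to 9505 CPM in ischemia/reperfusion replicate 3, the library with the highest Fos, Fosb, Jun, Junb and Jund, against 3706 and 4612 CPM in the other ischemia/reperfusion libraries and 4348 to 5423 CPM in sham. Choroid plexus markers were at 1213 CPM in that library, 20.3 CPM in ischemia/reperfusion replicate 2 and 426 CPM in replicate 1, against 550 to 767 CPM in sham. Striatal markers were positive in 5 of 5 tested, with 0.59 as their median on the log2 scale, and summed to 358, 98.4 and 164 CPM in ischemia/reperfusion replicates 1, 2 and 3, against 132, 90.6 and 227 CPM in sham replicates 1, 2 and 3. Like Jun and Jund, they were lowest among ischemia/reperfusion libraries in replicate 2. The part of these lists in the Fos and Jun values was not tested.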

How the data were processed

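The samples were total mouse brain RNA without its ribosomal RNA, sequenced as paired reads from NEBNext Ultra libraries, per the labels' protocols. The genome build was mm10, per the submitters' processing notes. No source used here names the aligner, counting tool, annotation or strand setting. Counts were deposited as whole numbers. Deposited RPKM matched the count divided by the deposited row length in kilobases and by the column total in units of 1e+06, for 100% of values within a relative tolerance of 0.001. The authors' deposited table holds mean RPKM, a log2 fold change, p-values and q-values.

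edgeR 4.0.16 in R 4.3.3 served for the main comparison of counts, with a two-sided quasi-likelihood F test under robust estimation, after filterByExpr at its defaults and TMM scaling. P-values were adjusted by Benjamini-Hochberg over 40170 rows, with a threshold of 0.05. Each SE is the absolute log2 fold change over the root of F. The step was tested on simulated data. Other settings tried were RLE factors, upper-quartile factors, an unfiltered table, a minimum mean of 1 CPM, DESeq2 1.42.0 (which adjusted 32377 rows), limma-voom (limma 3.58.1), non-robust estimation, gene rows alone, a replicate block, each library left out in turn, and limma on log2(RPKM + 0.1) and log2(RPKM + 1). Replicates differed by more than sampling noise (chi-square per degree of freedom 8.26 to 29.7), so each library counted as 1 sample. Named genes were all members, up to 4 of each list with the smallest edgeR p-value, the 5 nearest to Fos and to Jun, and rows overlapping a member. Srf, Maff and Plaur were added after their values were seen. Of 164 list and marker genes 161 were found, 3 by gene ID. Members and lists were chosen with earlier results of these data known. Promoters are RefSeq's.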

Additional observations from a re-analysis of the deposited data

How the results depend on the processing

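Fos, Fosb, Fosl2, Jun, Junb and Jund kept a positive log2 fold change under all 17 alternatives. Fosl1 turned to −0.0076 with RLE factors, −0.0054 with no filter and −0.0074 with DESeq2. Leaving out 1 library gave −0.15 to 0.13 for Fosl1, 1.01 to 1.43 for Jun and 0.49 to 1.31 for Junb. Jun passed with DESeq2 (1.22) and without ischemia/reperfusion replicate 2. Junb passed without sham replicate 2, the library singled out in part for its high Junb. No other member passed under any alternative. Over all rows 1 call was made, against 2 with upper-quartile factors, 77 with no filter, 584 with DESeq2, 4 with limma-voom and 4 without robust estimation. Without ischemia/reperfusion replicate 1 there were 1057, without ischemia/reperfusion replicate 2 there were 43, without sham replicate 2 there were 34, and without any of the other 3 libraries 0. A mean of at least 1 CPM gave 0 with 4611 rows at an unadjusted p under 0.05, gene rows alone 0 (2144), and limma on log2(RPKM + 0.1) and log2(RPKM + 1) 0 each (5990 and 5994). The fit with the replicate block called 0 rows (5839 at an unadjusted p under 0.05) and gave 2.02 for Fos and 1.49 for Fosb. The labels state no pairing of same-numbered libraries. Their deviations from group means correlated over rows at −0.11, 0.05 and 0.21, against −0.21 to 0.18 for libraries with other numbers. With so few libraries these values cannot decide whether same-numbered libraries shared a batch. Members whose groups did not overlap numbered 2 to 6 when a library was left out. List medians moved in a few cases. The leucine zipper list gave 0.11 to 0.29 when a library was left out. The kinase list gave 0.046 and 0.044 in the RPKM fits. The promoter factor list gave 0.17 with 0.1 added to RPKM and 0.032 to 0.13 when a library was left out. The turnover list gave 0.016 with upper-quartile factors, 0.0093 with a mean of at least 1 CPM, 0.019 on gene rows alone, 0.020 and 0.016 in the RPKM fits, and −0.071 to 0.011 when a library was left out. Of the genes nearest to Jun 2 were shared without sham replicate 2. The cause of these moves was not tested.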
